A study of Mus musculus with 8 samples.

Results

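The transcripts described here come from 44 genes of the lysosome: 9 cathepsins, 13 hydrolases and their cofactors, 7 proteins of the lysosomal membrane and of lipid transport, 12 subunits or partners of the V-ATPase, and the 3 transcription factors Tfeb, Tfe3 and Mitf. They were chosen by name from the 54419 gene models of the deposited table, and all 44 were found and reached 1 FPKM in at least 2 libraries, Ctsk only by counting OGD_PARP14 replicate 2. The unit, FPKM, divides fragments by the length of the gene model and by the library size, so that levels of different genes can be set beside each other. The cells were primary microglia from brains of C57BL/6 mice at postnatal day 2, and the series text states 2 independent experiments.

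The 8 libraries fall into 4 groups of 2. Those labelled OGD_PARP14 had a CRISPR activation plasmid for Parp14 and 6 h of OGD, those labelled OGD_Con a control plasmid and OGD, those labelled PARP14 the activation plasmid, and those labelled Con the control plasmid. All 4 groups were transfected, for 24 h, and OGD is taken here as oxygen and glucose deprivation, a culture model of ischemia. The protocol names OGD without limiting it to some samples, whereas the titles give it only to groups whose names begin with OGD. How many animals went into each culture is not stated.

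Lysosomes break down proteins, lipids and sugars that reach them by endocytosis, phagocytosis or autophagy. The V-ATPase pumps protons into their lumen, and at the acid pH so reached the cathepsins and other hydrolases work. Tfeb, Tfe3 and Mitf bind a short palindrome, the CLEAR element, in front of many lysosomal genes and raise their transcription when the kinase mTORC1 is inactive. Microglia, the phagocytes of the brain, carry many lysosomes, and Cd68, a membrane protein of this organelle, is widely used to mark their phagocytic state.

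Estimated depth was 13.4 M to 17.0 M fragments a library, and 10446 to 10662 models reached 1 FPKM in each. OGD_PARP14 replicate 2 stood apart: its correlation with the other 7 libraries was 0.88 to 0.903, against 0.945 to 0.986 among those 7. The gene model that holds Parp14, deposited under the name Gm49730 with 3 of its 4 transcripts from Parp14, had 55.8 and 54.6 FPKM in the libraries labelled OGD_PARP14 against 12.5 and 53.7 in those labelled OGD_Con, and 12.2 and 11.5 in those labelled PARP14 against 61.5 and 50.7 in those labelled Con. The activation plasmid should raise this gene, so its level went against the labels in the libraries without OGD, and every group name below is a label and no more. Summed FPKM of 9 microglial markers was 1607 to 2197 in 7 libraries and 2449 in OGD_PARP14 replicate 2. Markers of astrocytes, the oligodendrocyte lineage, neurons, endothelial cells and fibroblasts or mural cells each summed to at most 10.5 FPKM in every library.

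The promoters of 6 of these genes, picked by the results below, are shown. In the test of 7 libraries given below, Gla, Atp6v1a and Mcoln1 rose with OGD, and Gusb and Ctsc fell. Ctsd passed in neither OGD comparison and gained the most FPKM of the cathepsins in the library that stood apart. Ctsz, which rose in OGD_Con against Con and lacks the palindrome marked here, is not shown. Ctsa and Atp6v0d1, which hold it and did not pass, are not shown either. A link between promoter sequence and the OGD difference was not tested. Each promoter shown is 300 bases from RefSeq on GRCm38.p6, 250 before and 50 after the start of the gene, 5′ to 3′ along the gene. Capitals mark the 8-letter palindrome TCACGTGA, which is the same on both strands and holds the 6-letter palindrome CACGTG within it.
Gla (chrX:134600956-134601255, minus strand, rose): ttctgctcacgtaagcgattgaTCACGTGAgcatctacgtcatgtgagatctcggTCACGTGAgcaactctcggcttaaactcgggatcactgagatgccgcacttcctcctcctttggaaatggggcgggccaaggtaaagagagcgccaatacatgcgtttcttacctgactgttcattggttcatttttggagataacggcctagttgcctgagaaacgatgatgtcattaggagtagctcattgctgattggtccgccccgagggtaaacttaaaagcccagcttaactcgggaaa
Atp6v1a (chr16:44139210-44139509, minus strand, rose): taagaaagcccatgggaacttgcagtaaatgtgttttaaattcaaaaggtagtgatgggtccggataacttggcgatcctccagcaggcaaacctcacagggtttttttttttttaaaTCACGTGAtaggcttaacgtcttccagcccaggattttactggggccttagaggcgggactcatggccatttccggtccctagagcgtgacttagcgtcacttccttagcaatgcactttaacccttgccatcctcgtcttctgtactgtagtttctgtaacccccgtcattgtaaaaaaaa
Mcoln1 (chr8:3500269-3500568, plus strand, rose): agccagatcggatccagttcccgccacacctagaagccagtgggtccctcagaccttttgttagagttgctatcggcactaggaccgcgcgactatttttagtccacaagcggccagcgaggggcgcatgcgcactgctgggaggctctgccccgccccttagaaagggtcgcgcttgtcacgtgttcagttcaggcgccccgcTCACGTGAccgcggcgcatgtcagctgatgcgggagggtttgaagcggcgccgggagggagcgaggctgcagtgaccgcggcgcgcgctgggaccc
Ctsd (chr7:142387778-142388077, minus strand, did not pass): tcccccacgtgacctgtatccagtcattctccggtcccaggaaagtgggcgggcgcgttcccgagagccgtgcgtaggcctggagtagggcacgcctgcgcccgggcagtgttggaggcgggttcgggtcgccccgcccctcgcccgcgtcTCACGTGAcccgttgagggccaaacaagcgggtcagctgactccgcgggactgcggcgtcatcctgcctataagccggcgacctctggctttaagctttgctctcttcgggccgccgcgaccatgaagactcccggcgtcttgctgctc
Gusb (chr5:130003000-130003299, minus strand, fell): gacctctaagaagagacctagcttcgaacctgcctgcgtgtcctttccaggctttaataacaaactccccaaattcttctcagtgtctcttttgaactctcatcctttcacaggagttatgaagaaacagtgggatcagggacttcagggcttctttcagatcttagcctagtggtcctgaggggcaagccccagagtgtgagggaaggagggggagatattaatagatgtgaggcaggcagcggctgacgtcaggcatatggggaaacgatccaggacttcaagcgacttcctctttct
Ctsc (chr7:88277835-88278134, plus strand, fell): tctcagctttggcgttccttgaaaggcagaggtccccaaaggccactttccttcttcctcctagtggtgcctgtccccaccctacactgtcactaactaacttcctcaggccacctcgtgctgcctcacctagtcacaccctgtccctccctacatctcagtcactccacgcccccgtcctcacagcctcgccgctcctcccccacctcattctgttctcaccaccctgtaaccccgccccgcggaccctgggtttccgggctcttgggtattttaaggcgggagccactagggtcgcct

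TCACGTGA was found in 6 of the 36 genes on the list that the promoter table holds (16.7%): Ctsa, Ctsd, Gla, Mcoln1, Atp6v0d1 and Atp6v1a. Over all 27025 genes of that table it was found in 1.12%, and in 2.4% of the 7342 genes tested for expression below. Gla and Ctsa held 2 copies each. The shorter CACGTG was found in 12 of the 36 genes (33.3%), against 8.09% of all genes and 12.6% of the tested genes; the other 6 were Ctsl, Lamp1, Gaa, Glb1, Lgmn and Atp6v0b. Neither was found in the windows of Gusb, Ctsc and Ctsz. Of the genes described next as higher, Gla, Atp6v1a and Mcoln1 held TCACGTGA, Ctsz did not, and Atp6v1c1 was not searched, while Ctsa, Ctsd and Atp6v0d1 also held it and did not pass the test.

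The first question is how the lysosomal genes differed between microglia labelled with and without OGD. limma was fitted to log2(FPKM + 1) of 11146 gene models, and a gene passed at an adjusted p (Benjamini-Hochberg, over all models) under 0.05. With all 8 libraries, 0 of the 44 genes passed in OGD_Con against Con, where 0.269% of all models passed, and 0 passed in OGD_PARP14 against PARP14, where 0.215% did. At an unadjusted p under 0.05 the counts were 6 of 44 (13.6%, against 19.2% of all models) and 9 of 44 (20.5%, against 14.5%). limma estimates 1 spread for all groups, and the median standard error of the 44 genes in OGD_Con against Con was 0.18 with 8 libraries and 0.09 without OGD_PARP14 replicate 2.

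Without OGD_PARP14 replicate 2, a fit chosen with that library's values known, 7 of the 44 genes passed in OGD_Con against Con (15.9%): Gla, Atp6v1a, Atp6v1c1, Ctsz and Mcoln1 were higher, Gusb and Ctsc were lower. Of all models 10.7% passed as higher and 12.4% as lower, so the share of these genes that passed lay below that of all models. In OGD_PARP14, now a single library assumed to vary like the other groups, against PARP14, 6 of the 7 passed again in the same direction and Ctsz did not (13.6% of 44, against 5.54% of all models higher and 5.17% lower). The other 37 genes passed in neither comparison. The fold changes of 29 genes were positive and those of 11 negative in both, and the median over the 44 was 0.13 and 0.078 on the log2 scale, against -0.021 and -0.014 over all models. All fold changes here are differences of log2(FPKM + 1), which understate those of genes with few FPKM, with moderated standard errors.

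**Figure D1:**
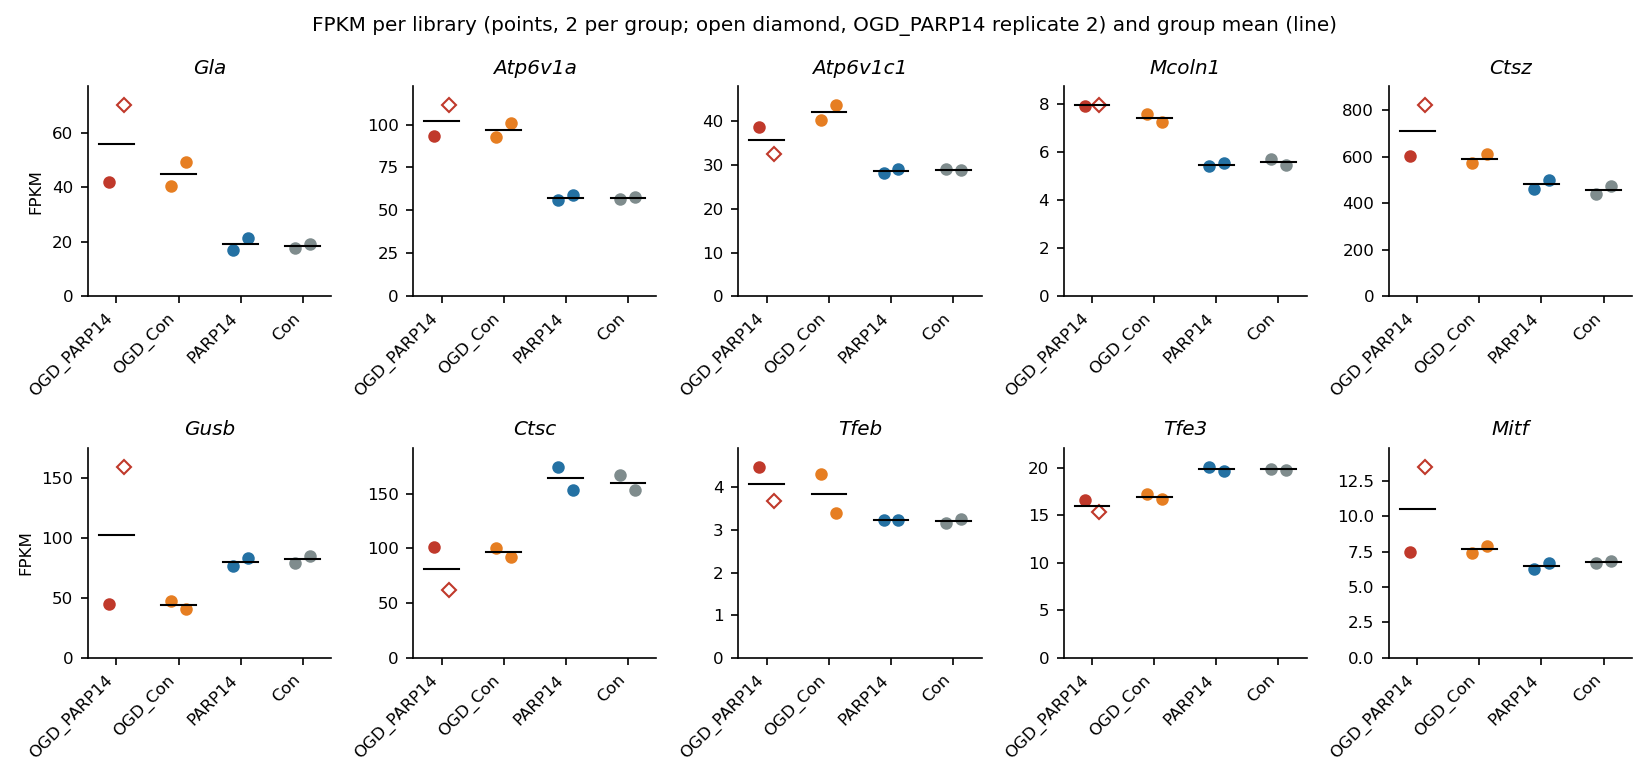
FPKM of 10 genes in each library (points, 2 per group, with the group mean as a line), from the group with OGD and the activation plasmid on the left to the control group on the right; the open diamond is OGD_PARP14 replicate 2. Gla, Atp6v1a, Atp6v1c1, Mcoln1 and Ctsz lay higher in the OGD groups, Ctsc and Tfe3 lower, and Gusb lower in all OGD libraries but the open diamond.

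Among the hydrolases, Gla (chromosome X, 134588149 to 134601125 in the deposited coordinates), the alpha-galactosidase that is lost in Fabry disease, showed the largest rise. It had 40.6 and 49.2 FPKM in OGD_Con against 17.6 and 19.1 in Con, and 41.9 and 70.1 in OGD_PARP14 against 16.9 and 21.5 in PARP14. All 4 OGD libraries were above all 4 others. Its log2 fold change without the library that stood apart was 1.24 ± 0.15 (SE, limma adjusted p = 0.00782) in OGD_Con against Con and 1.09 ± 0.19 (adjusted p = 0.0299) in OGD_PARP14 against PARP14; with all 8 libraries the adjusted p were 0.108 and 0.114.

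Gusb (chromosome 5, 129989011 to 130003049), the beta-glucuronidase that removes sugar residues from glycosaminoglycans, moved the other way. It had 47.0 and 40.4 FPKM in OGD_Con against 79.0 and 84.8 in Con. In OGD_PARP14 replicate 1 it had 44.4 FPKM against 76.7 and 83.4 in PARP14, and in replicate 2 it had 159. Thus 3 OGD libraries lay below all 4 libraries without OGD and the remaining one lay above all 7. The log2 fold changes without that library were -0.89 ± 0.10 (SE, limma adjusted p = 0.00702) and -0.83 ± 0.13 (adjusted p = 0.0234), and with all 8 libraries they were -0.89 ± 0.54 (adjusted p = 0.424) and 0.07 ± 0.54 (adjusted p = 0.96).

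The other 11 genes of this class did not pass. They include the enzymes Lipa (acid lipase), Gaa (alpha-glucosidase), Hexa (beta-hexosaminidase alpha), Lgmn (asparagine endopeptidase), Tpp1, Ppt1, Asah1 (acid ceramidase) and Smpd1 (acid sphingomyelinase), the activator precursor Psap, and Grn, the progranulin precursor. Grn came nearest in OGD_Con against Con, with 438 and 380 FPKM against 319 and 338 in Con, a log2 fold change of 0.31 ± 0.10 (SE, limma adjusted p = 0.0793). In the other arm it had 405 and 466 FPKM in OGD_PARP14 against 405 and 376 in PARP14, and these groups met. Psap, the most abundant of the class, had 1686 and 1718 FPKM in OGD_Con against 1448 and 1534 in Con, and 1773 and 2432 in OGD_PARP14 against 1533 and 1551 in PARP14. Lgmn had 1142 and 1016 FPKM in OGD_Con against 997 and 905 in Con, and 1146 and 1123 in OGD_PARP14 against 1008 and 919 in PARP14. For both, the 4 OGD libraries lay above the 4 others. Glb1, the beta-galactosidase, had 14.1 and 14.5 FPKM in OGD_Con against 15.0 and 15.3 in Con, in a model joined with its neighbour Tmppe.

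Of the 9 cathepsins 2 passed, in opposite directions. Ctsc (chromosome 7, 88278085 to 88310888), the dipeptidyl peptidase that activates granule serine proteases, had 100.4 and 92.1 FPKM in OGD_Con against 167 and 153 in Con, and 101 and 61.4 in OGD_PARP14 against 175 and 153 in PARP14. All 4 OGD libraries were below all 4 others. The log2 fold changes without the library that stood apart were -0.73 ± 0.10 (SE, limma adjusted p = 0.0109) and -0.69 ± 0.12 (adjusted p = 0.034), and with 8 libraries the adjusted p were 0.19 and 0.156.

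Ctsz (chromosome 2, 174427493 to 174439039), a carboxypeptidase also called cathepsin X, had 574 and 611 FPKM in OGD_Con against 440 and 473 in Con, and 604 and 822 in OGD_PARP14 against 462 and 502 in PARP14. Here too the 4 OGD libraries lay above the 4 others. Its log2 fold change of 0.38 ± 0.09 (SE, limma adjusted p = 0.0357) passed in OGD_Con against Con; in OGD_PARP14 against PARP14 it was 0.33 ± 0.10 (adjusted p = 0.112). The difference between those comparisons did not pass for Ctsz or for any other of the 44 genes, where 0.0807% of all models passed.

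The other 7 cathepsins did not pass. Ctsa, a carboxypeptidase that also protects Glb1, had 208 and 231 FPKM in OGD_Con against 155 and 185 in Con, a log2 fold change of 0.37 ± 0.13 (SE, limma adjusted p = 0.0974). Ctss, an endopeptidase that stays active at neutral pH and was the most abundant of the 44 transcripts, had 2211 and 1780 FPKM in OGD_Con against 2075 and 1991 in Con, and 2193 and 4165 in OGD_PARP14 against 2196 and 2222 in PARP14. Apart from the 4165 FPKM these values overlapped. Ctsb had 1107 and 1142 FPKM in OGD_Con against 952 and 1077 in Con, and 1168 and 3187 in OGD_PARP14 against 956 and 1164 in PARP14. Ctsd, the aspartic protease of the family, is listed in a model joined with Ifitm10 and Gm49369 and had 766 and 794 FPKM in OGD_Con against 702 and 822 in Con. OGD_Con and Con did not overlap for Ctsa and Ctsb and overlapped for Ctsd. Ctsk, the collagenase of osteoclasts, was at 0.348 to 1.25 FPKM in the 7 libraries.

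The V-ATPase holds a membrane ring, V0, through which protons pass, and a cytosolic head, V1, that splits ATP. The genes that passed encode V1 subunits. Atp6v1a (chromosome 16, 44085402 to 44139305), the catalytic subunit A, had 93.0 and 101 FPKM in OGD_Con against 56.8 and 57.5 in Con, and 93.2 and 111 in OGD_PARP14 against 55.9 and 59.1 in PARP14. The gap between the OGD libraries and the others was wider than either set's own range. The log2 fold changes without the library that stood apart were 0.75 ± 0.08 (SE, limma adjusted p = 0.00536) and 0.69 ± 0.10 (adjusted p = 0.0186), and with 8 libraries the adjusted p were 0.0767 and 0.103.

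Atp6v1c1 (chromosome 15, 38661933 to 38692446), subunit C1, which links the head to the stator, had 40.4 and 43.7 FPKM in OGD_Con against 29.0 and 28.8 in Con, and 38.8 and 32.5 in OGD_PARP14 against 28.2 and 29.0 in PARP14. All OGD libraries were higher. The log2 fold changes without the library that stood apart were 0.52 ± 0.07 (SE, limma adjusted p = 0.0109) and 0.43 ± 0.09 (adjusted p = 0.0459), and with 8 libraries the adjusted p were 0.123 and 0.34.

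The other 10 genes of the V-ATPase did not pass, so its subunits did not share a call. Atp6v1b2, the other subunit of the catalytic hexamer, had 146 and 149 FPKM in OGD_Con against 147 and 145 in Con, and 139 and 153 in OGD_PARP14 against 140 and 146 in PARP14. These groups overlapped in both arms, with a log2 fold change of 0.01 ± 0.07 (SE) in OGD_Con against Con. Atp6v1e1 was as close, with 52.9 and 55.6 FPKM in OGD_Con against 51.5 and 57.2 in Con. Atp6v1d of the central stalk had 26.2 and 27.2 FPKM in OGD_Con against 22.1 and 16.9 in Con, with a log2 fold change of 0.45 ± 0.16 (SE, limma adjusted p = 0.0983). In V0, Atp6v0c, the ring subunit, had 121 and 100.2 FPKM in OGD_Con against 67.9 and 106 in Con, and 137 and 123 in OGD_PARP14 against 106 and 101 in PARP14. The first pair of groups overlapped and the second did not.

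Mcoln1 (chromosome 8, 3500457 to 3515232), the calcium channel TRPML1, was the membrane gene that passed. It had 7.59 and 7.27 FPKM in OGD_Con against 5.69 and 5.46 in Con, and 7.93 and 7.95 in OGD_PARP14 against 5.40 and 5.53 in PARP14. Replicates lay close together in every group. The log2 fold changes without the library that stood apart were 0.36 ± 0.07 (SE, limma adjusted p = 0.0227) and 0.47 ± 0.08 (adjusted p = 0.0334), and with 8 libraries the adjusted p were 0.148 and 0.136.

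Of the other membrane and lipid transport genes, Cd68 had 344 and 373 FPKM in OGD_Con against 216 and 302 in Con, and 391 and 1153 in OGD_PARP14 against 226 and 322 in PARP14. Its OGD libraries were above the others, and the log2 fold change of 0.49 ± 0.23 (SE, limma adjusted p = 0.184) did not pass. Cd63, a tetraspanin of late endosomes, had 87.7 and 87.6 FPKM in OGD_Con against 67.8 and 74.5 in Con (adjusted p = 0.0757 in limma). Lamp1, which with Lamp2 is the main glycoprotein of the membrane, had 837 and 849 FPKM in OGD_Con against 719 and 783 in Con, and 842 and 959 in OGD_PARP14 against 740 and 806 in PARP14. Its log2 fold change was 0.17 ± 0.08 (SE) in OGD_Con against Con and did not pass. Npc1 and Npc2, which pass cholesterol out of the lysosome, lay at 11.9 to 13.2 and 131 to 163 FPKM over the 7 libraries.

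**Figure D2:**
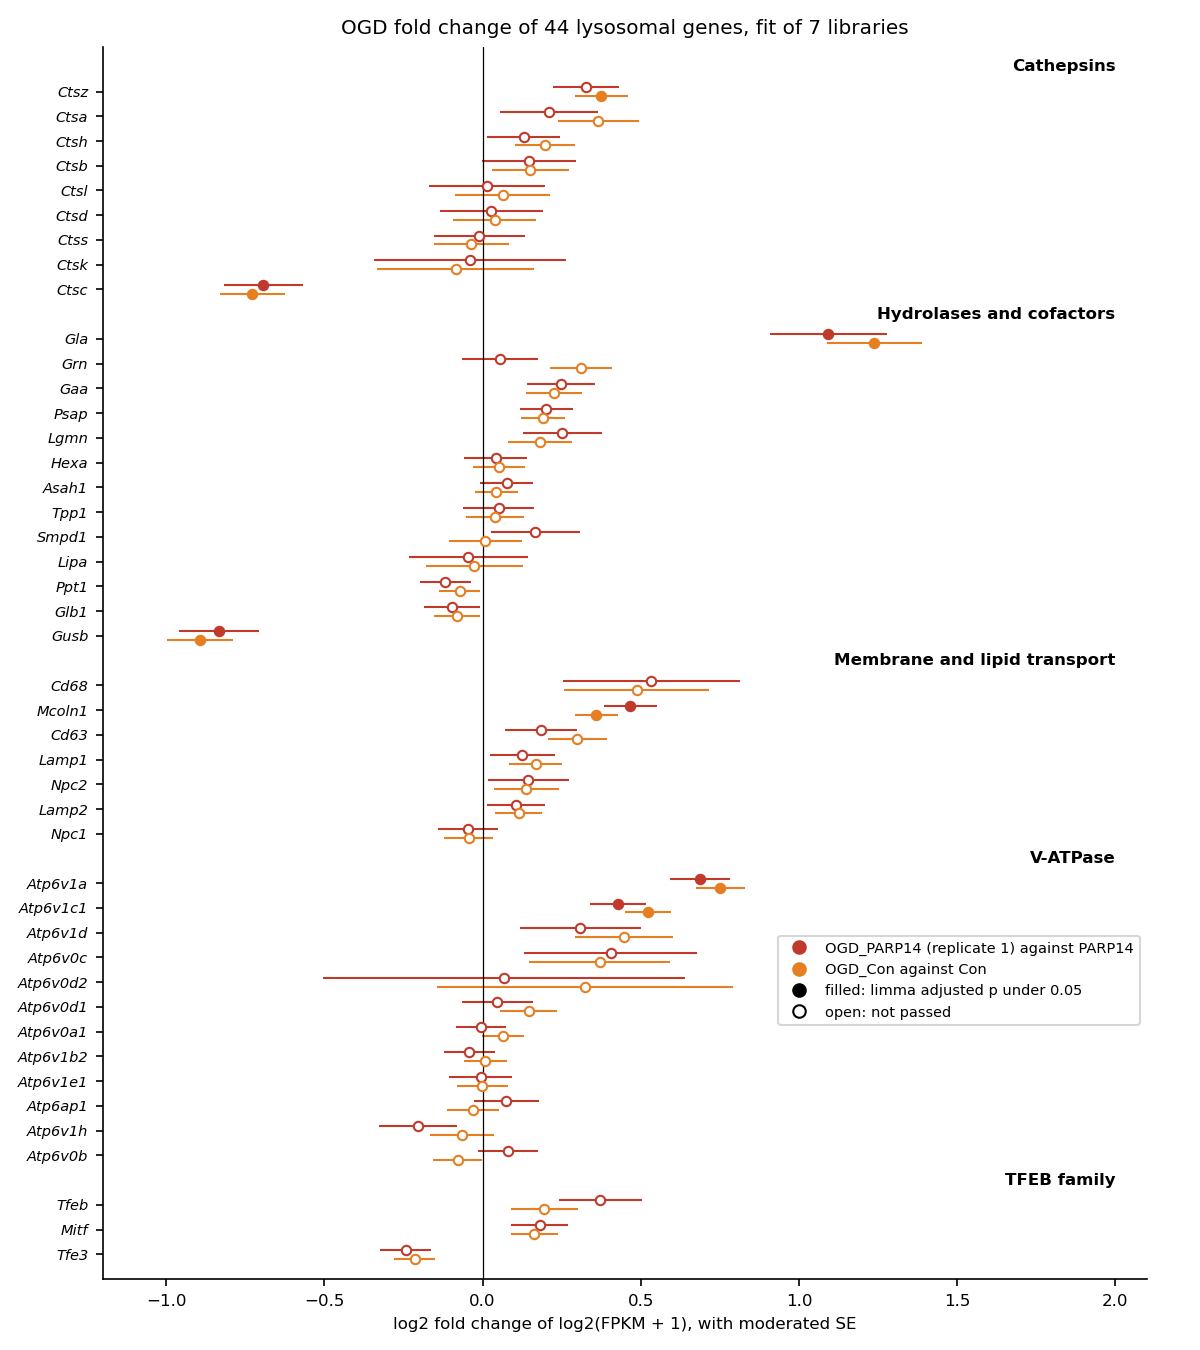
Fold change of all 44 genes, in log2 units of FPKM + 1 with limma's standard error, in OGD_PARP14 replicate 1 against PARP14 (red) and OGD_Con against Con (orange), from the fit of 7 libraries; filled points passed at an adjusted p under 0.05. The 7 genes with a filled point stood at -0.89 to 1.24 in OGD_Con against Con, and 29 of the 44 genes lay above 0 in both comparisons.

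None of the 3 transcription factors passed. Tfeb had 4.32 and 3.39 FPKM in OGD_Con against 3.17 and 3.27 in Con, and 4.49 and 3.68 in OGD_PARP14 against 3.25 and 3.24 in PARP14. Tfe3, the most abundant of the family here, had 17.2 and 16.7 FPKM in OGD_Con against 19.9 and 19.8 in Con, and 16.6 and 15.3 in OGD_PARP14 against 20.1 and 19.7 in PARP14. Mitf had 7.44 and 7.92 FPKM in OGD_Con against 6.68 and 6.81 in Con, and 7.47 and 13.5 in OGD_PARP14 against 6.26 and 6.69 in PARP14. All 4 OGD libraries were above the others for Tfeb and Mitf and below them for Tfe3, with 7-library limma adjusted p of 0.241, 0.167 and 0.0716 in OGD_Con against Con. Activity of these proteins is set largely by where they are in the cell, which RNA levels do not show.

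Counted by overlap, 17 of the 44 genes had all 3 OGD libraries other than OGD_PARP14 replicate 2 above all 4 libraries without OGD, and 5 had them below: Ctsc, Gusb, Glb1, Ppt1 and Tfe3. Over all models the shares were 22.1% above and 26.7% below. By class, the 3 libraries were above in 3 of 9 cathepsins, 4 of 13 hydrolases, 4 of 7 membrane genes, 4 of 12 V-ATPase genes and Tfeb and Mitf.

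How firm the calls were depended on single libraries. With 1 more library left out of the 7, calls were lost in both comparisons. In OGD_Con against Con the loss was largest without Con replicate 1, Con replicate 2 or OGD_Con replicate 2. In OGD_PARP14 against PARP14 the calls were lost without PARP14 replicate 1, and also without PARP14 replicate 2. The share of all models that passed in those fits is not given, so this loss is not read as particular to these genes. In OGD_Con against Con, Gusb and Atp6v1a passed under all 16 other settings tried on the 7 libraries, Gla under all but the one without Con replicate 1 (adjusted p = 0.0501), while Ctsz lost its call under 8. No fold change of the 7 genes turned its sign under any of these settings.

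The second question is what the activation plasmid did. Between OGD_PARP14 and OGD_Con 0 of the 44 genes passed with 8 libraries, where 0% of all models passed, and 0 without OGD_PARP14 replicate 2, where 0.0987% did. Between PARP14 and Con 0 passed with 8 libraries (0.00897% of all models) and 0 with 7 (0.0538%). The interaction of OGD and plasmid gave 0 with 8 libraries (0.00897% of all models) and 0 with 7. At an unadjusted limma p under 0.05, 0 of the 44 genes passed in each of these 3 comparisons in either fit. Over all models the shares at that p with 8 and with 7 libraries were 3.47% and 3.4% in OGD_PARP14 against OGD_Con, 0.987% and 2.98% in PARP14 against Con, and 1.89% and 3.44% in the interaction. The Parp14 model itself went against the labels in the libraries without OGD and differed between the OGD_Con replicates, at 12.5 and 53.7 FPKM. These are therefore comparisons of labels.

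Without OGD_PARP14 replicate 2, the plasmid groups lay close together. The fold change was within 0.2 log2 units for 42 of the 44 genes in OGD_PARP14 against OGD_Con and for 42 in PARP14 against Con, with median standard errors of 0.11 and 0.09. Atp6v0c differed most in both, by 0.32 and 0.28. It had 137 FPKM in OGD_PARP14 replicate 1 against 121 and 100.2 in OGD_Con, and 106 and 101 in PARP14 against 67.9 and 106 in Con. Con replicate 1, at 67.9 FPKM, lay below all other libraries and belongs to PARP14 against Con only. The medians over the 44 genes were 0.0195 and 0.0209. With all 8 libraries the median in OGD_PARP14 against OGD_Con was 0.25, against -0.05 over all models.

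That shift came with OGD_PARP14 replicate 2, in which most of the 44 transcripts were higher than in any other library. Other lysosomal genes, described below, were more divided. It held 31 of the 44 genes (70.5%) above all 7 other libraries and 6 (13.6%) below them, whereas of all models 20.7% were above and 38.5% below. This is 1 library, so no test of it is given. Per library, the 44 genes summed to 10066 to 11731 FPKM in the 7 others and to 20812 in this one. Of the FPKM of all named gene models, that was 3.52% to 3.91% in the 7 others and 7.0% in this one. In bulk RNA, more cells with many lysosomes and more RNA per cell cannot be told apart.

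**Figure D3:**
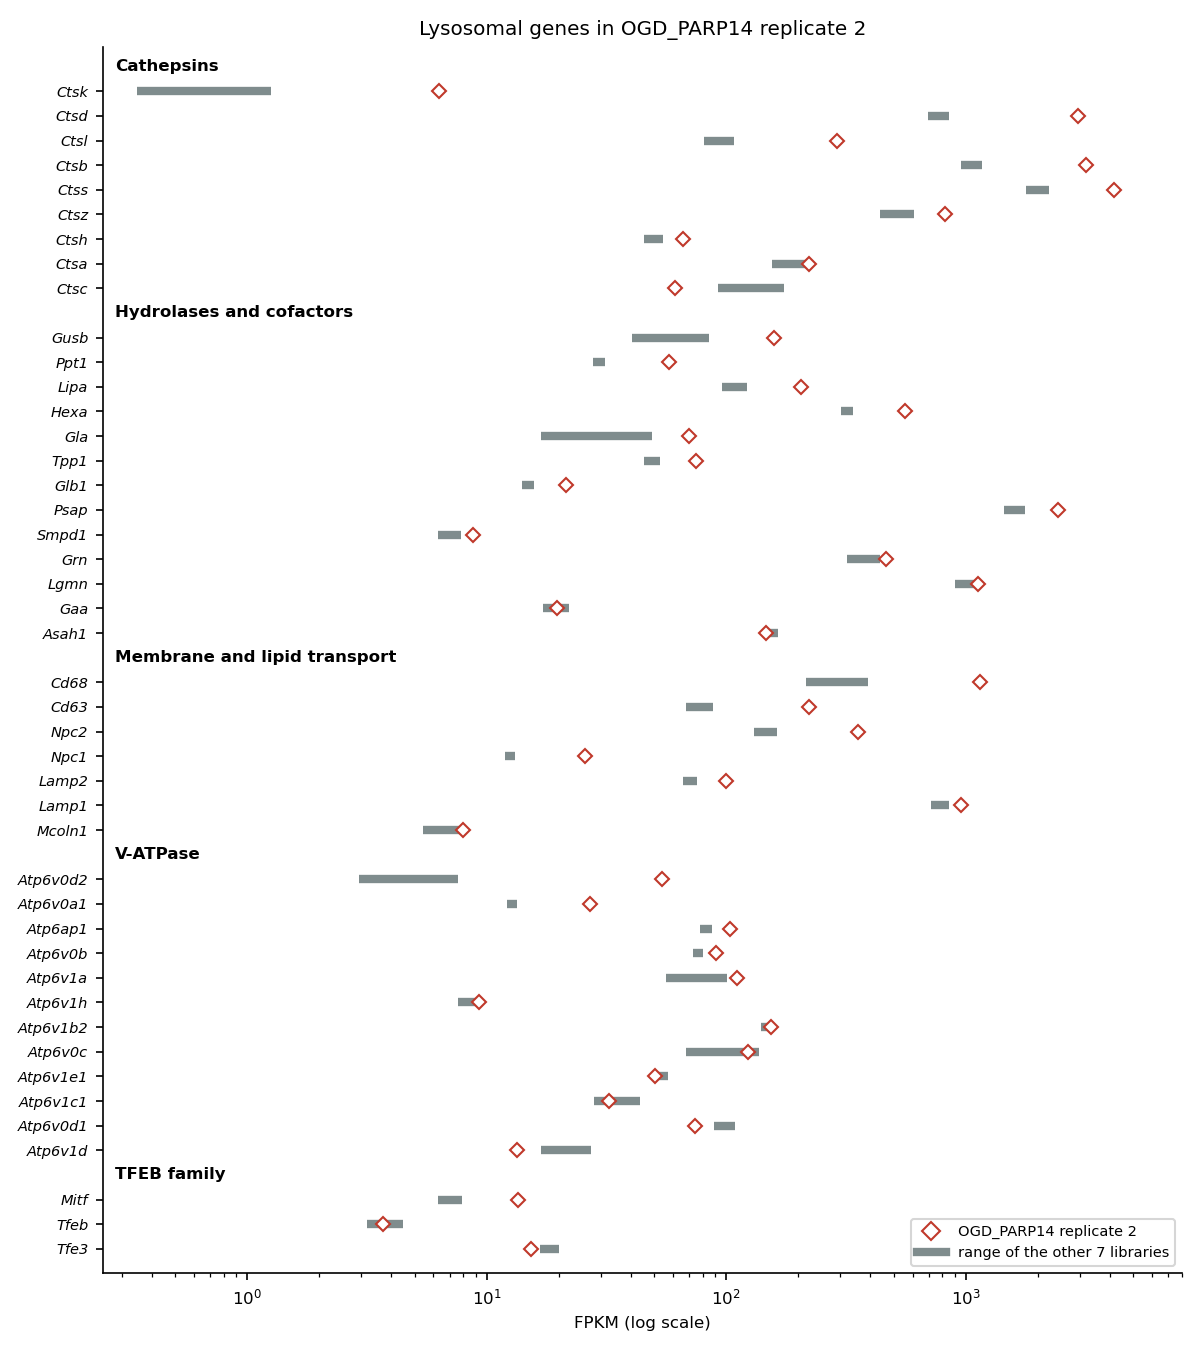
FPKM (log axis) of the 44 genes in OGD_PARP14 replicate 2 (diamonds) and the range of the other 7 libraries (bars), by class. Of the diamonds, 31 lie to the right of their bar, among them all 7 membrane genes, and 6 lie to the left.

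Cathepsins carried most of the gain in summed FPKM. By median log2 difference from the other 3 OGD libraries, cathepsins and membrane genes rose most. Ctsd had 2953 FPKM in OGD_PARP14 replicate 2 against 699 to 856 in the other 7 libraries, Ctsb 3187 against 952 to 1168, and Ctss 4165 against 1780 to 2222. Ctsl, an endopeptidase listed with the pseudogene Gm49230, had 291 FPKM against 81.0 to 108. These were 2.02 to 3.77 times the mean of the other 3 OGD libraries. Ctsk, with 6.33 FPKM against at most 1.25, was at 9.53 times that mean, a ratio that rests on levels near 1 FPKM. Ctsk also met the minimum of 1 FPKM in 2 libraries only through this library; without it, 30 of 43 genes (69.8%) and 6 of 8 cathepsins were above all others. Of the remaining cathepsins, Ctsa lay within the range, at 221 FPKM against 155 to 231, and Ctsc below it, at 61.4 against 92.1 to 175.

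In the membrane class all 7 genes were above the other libraries, although Mcoln1 by 7.95 against at most 7.93 FPKM. Cd68 had 1153 FPKM in OGD_PARP14 replicate 2 against 216 to 391 in the others, Cd63 222 against 67.8 to 87.7, Npc2 353 against 131 to 163, and Npc1 25.8 against 11.9 to 13.2. The median log2 difference from the mean of the other 3 OGD libraries was 1.04 in this class and 1.02 for cathepsins. For hydrolases it was 0.56, with Gusb at 3.62 times and Ppt1, a thioesterase that removes palmitate from proteins, at 2.05 times, and Asah1 just below the range.

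V-ATPase genes and transcription factors moved less and in both directions. The median log2 difference was 0.13 for the V-ATPase and -0.11 for the transcription factors, against -0.10 for all models. Atp6v0d2, the d2 form of the V0 stalk subunit, had 53.9 FPKM in OGD_PARP14 replicate 2 against 2.92 to 7.63 in the others. Its counterpart Atp6v0d1 had 74.3 against 88.6 to 108 and lay below them. Atp6v0a1 had 27.1 FPKM against 12.2 to 13.4, whereas Atp6v1d, at 13.4 against 16.9 to 27.2, and Atp6v1e1 were lower.

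**Figure D4:**
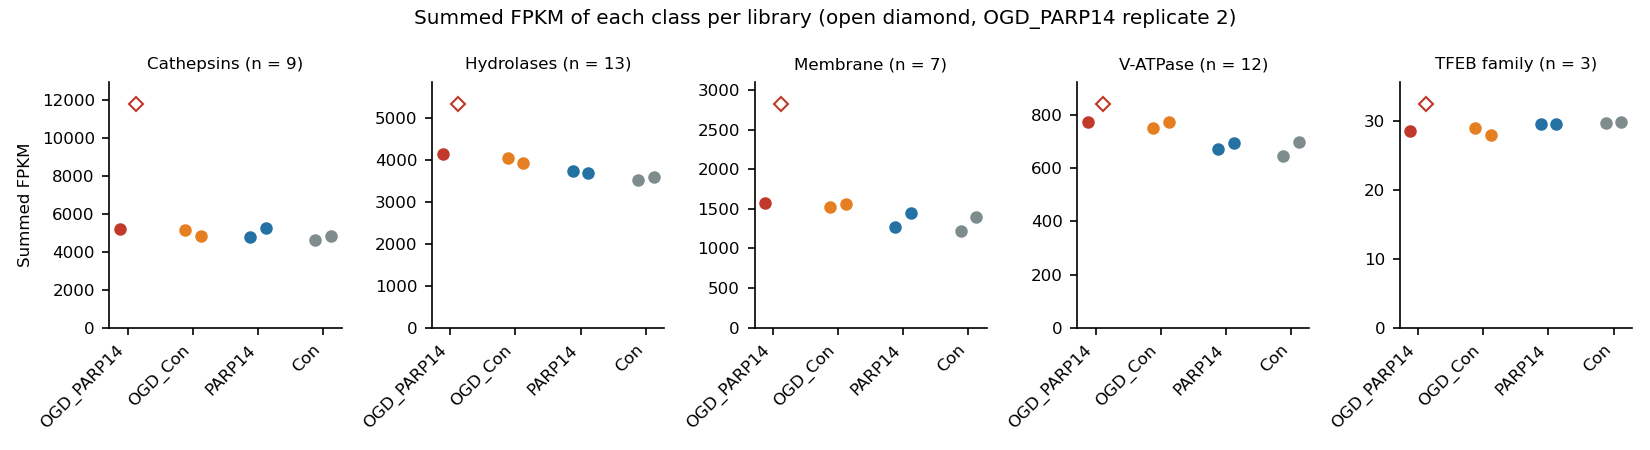
Summed FPKM of each class in every library, each panel from 0 on its own scale; groups run from OGD_PARP14 on the left to Con on the right and the open diamond is OGD_PARP14 replicate 2. The diamond is 2.24 times the highest other library for cathepsins, 1.79 times for membrane genes, 1.29 times for hydrolases and 1.09 times for both the V-ATPase and the transcription factors.

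Class sums show how much of the transcript pool the groups share. Cathepsins summed to 11773 FPKM in OGD_PARP14 replicate 2 and 4631 to 5249 in the 7 others, membrane genes to 2821 against 1222 to 1578, and hydrolases to 5343 against 3539 to 4143. Among the 7 libraries the sums of hydrolases, membrane genes and V-ATPase genes in the 3 OGD libraries lay above those in the 4 without OGD. For cathepsins they overlapped. The sum of 9 microglial markers in this library was 2449 FPKM against 1607 to 2197, with 3 of the 9 above all others and 3 below; that of 7 peripheral leukocyte markers was 34.8 against 35.5 to 45.9, with Cd3e and S100a9 at 0 everywhere; that of 5 fibroblast and mural markers was 0.94 against 0.16 to 0.65, and that of the oligodendrocyte lineage 10.5 against 6.14 to 7.05. Astrocyte, neuron and endothelial markers summed to less than in any other library. The part of these in the lysosomal difference was not tested.

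Replicates also differed in one direction. In OGD_Con, PARP14 and Con alike, replicate 2 lay above replicate 1 for 22 of the 44 genes (50.0%) and below it for 6 (13.6%), against 17.5% and 16.9% of all models. The 22 include Ctsa, Ctsb, Ctsd, Ctsk, Ctsl and Ctsz, and Cd68, Lamp1 and Npc2. Whether equal numbers mark one experiment is not stated.

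The rest of the pathway was read from 7 lists of other lysosomal genes, again without OGD_PARP14 replicate 2. With all 8 libraries 0 of their genes passed in limma in any of the 4 comparisons between groups. The shares to read the 7-library counts against are those of all models, 10.7% higher and 12.4% lower in OGD_Con against Con, and 5.54% and 5.17% in OGD_PARP14 against PARP14. Among 31 other hydrolases and activators, 5 (16.1%) were higher and 4 (12.9%) lower in OGD_Con against Con, with a median of 0.13, and 5 (16.1%) were higher and 1 (3.23%) lower in OGD_PARP14 against PARP14. Sgsh, the heparan sulfamidase, rose by 0.85 ± 0.07 and 0.70 ± 0.09 (SE, limma adjusted p = 0.00355 and 0.0153), and Hyal2, a hyaluronidase, by 1.01 ± 0.14 and 0.89 ± 0.17 (adjusted p = 0.0102 and 0.0375). Galc, the galactosylceramidase, fell by 0.60 and by 0.63 on the log2 scale (adjusted p = 0.00802 and 0.02), and Man2b1, an alpha-mannosidase, fell by 0.33 in OGD_Con against Con (adjusted p = 0.0246).

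Of 28 other membrane proteins, 6 (21.4%) were higher and 2 (7.14%) lower in OGD_Con against Con, and 3 (10.7%) higher and 1 (3.57%) lower in OGD_PARP14 against PARP14. Mfsd12, which brings cysteine into the organelle, rose by 0.77 ± 0.08 and 0.74 ± 0.10 (SE, limma adjusted p = 0.00536 and 0.0161), and Litaf, a protein of late endosomes, by 0.70 ± 0.09 and 0.54 ± 0.11. Scarb2, the receptor that carries glucocerebrosidase to lysosomes, fell by 0.77 and by 0.67 on the log2 scale (adjusted p = 0.00523 and 0.0204), and Sidt2 fell by 0.30 in OGD_Con against Con (adjusted p = 0.0368). Of 7 other V-ATPase subunits 1 passed, Atp6v1g1, a further V1 subunit, with 0.41 ± 0.07 and 0.44 ± 0.08 (adjusted p = 0.0152 and 0.0362). Of 3 expressed cystatins and similar inhibitors none passed in limma, with medians of 0.29 and 0.019.

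Of 22 genes around mTORC1 and Tfeb, 5 (22.7%) were higher and 1 (4.55%) lower in OGD_Con against Con, with a median of 0.07. Fnip1, a partner of folliculin, rose by 1.12 ± 0.13 and Rragd, a Rag GTPase, by 2.97 ± 0.37 (SE, limma adjusted p = 0.00766 and 0.00849), while Rraga fell by 0.37 and, in OGD_PARP14 against PARP14, by 0.47 on the log2 scale (adjusted p = 0.0252 and 0.0377). Folliculin itself (Flcn) and Fnip2, named after their values were seen, rose by 1.05 ± 0.20 and 1.47 ± 0.29. In OGD_PARP14 against PARP14 these 4 genes with higher levels did not pass, and Lamtor3 and Tsc1 were higher.

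Of 15 genes of mannose 6-phosphate and sortilin sorting, 2 (13.3%) were higher and 3 (20.0%) lower in OGD_Con against Con, then 0 and 1 (6.67%) in the other arm. The adaptors Gga3 and Gga2, which load mannose 6-phosphate receptors into vesicles, rose by 0.55 and 0.53 on the log2 scale (limma adjusted p = 0.0183 and 0.0287). Ap1g1 of the adaptor AP-1 fell by 0.59 and by 0.60 (adjusted p = 0.0109 and 0.0297), and Ap3d1 of AP-3 fell by 0.31. Of 20 genes of HOPS, CORVET and Rab7 fusion, 5 (25.0%) were higher and 2 (10.0%) lower, then 2 (10.0%) and 1 (5.0%). Tbc1d15, which switches off Rab7, rose by 0.92 ± 0.12 and 0.77 ± 0.14 (adjusted p = 0.00846 and 0.0362), and Arl8a, a GTPase that moves lysosomes outward, by 0.61 ± 0.09. Mon1b and Mon1a, of the complex that loads Rab7, fell by 0.50 and by 0.49 in OGD_Con against Con. Rab7 itself, which has 2 gene models, was lower by 0.72 on the log2 scale in OGD_PARP14 against PARP14. That difference rests on 1 library. Rab7 had 88.8 FPKM in OGD_PARP14 replicate 1 and 165 in replicate 2, against 134 and 161 in PARP14. It had 143 and 128 FPKM in OGD_Con and 133 and 140 in Con.

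For OGD_PARP14 replicate 2, the shares of all models above and below all 7 other libraries were 20.7% and 38.5%. It was above them for 13 of 31 other hydrolases (41.9%) and below for 6 (19.4%), and above for 16 of 28 other membrane proteins (57.1%) and below for 10 (35.7%). Of 7 other V-ATPase subunits 3 were above and 1 below, of 15 sorting genes 5 were above and 4 below, and all 3 cystatins and similar inhibitors were above. The mTORC1 and Tfeb genes, with 3 of 22 above (13.6%) and 8 below (36.4%), and the HOPS, CORVET and Rab7 genes, with 3 of 20 above (15.0%) and 8 below (40.0%), lay near the shares of all models.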

How the data were processed

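Per the labels' protocols, poly(A) RNA was made into dUTP-stranded libraries. The authors deposited FPKM per gene model; the submitters' processing notes list HISAT, StringTie, edgeR and the mouse build mm9 without tool versions. Of 39015 Ensembl models, 37538 (96.2%) have the coordinates of GENCODE M21 on GRCm38, so coordinates are given as deposited. StringTie can divide fragments between overlapping models. Ctsd, Ctsl and Glb1 have joined models, and 0 of the 44 genes have another model with a higher mean.

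The members and lists were chosen with earlier results of these data known. A model under the exact name came first, then the one with the highest mean. Named models with at least 1 FPKM in at least 2 libraries were tested (11146, of which 712 have joined names) on log2(FPKM + 1) with limma 3.58.1 in R 4.3.3, as 4 group means with 4 residual degrees of freedom, or 3 without OGD_PARP14 replicate 2. Values in every library are given for members that passed in either fit, the transcription factors and the 2 most abundant members of each other class, and per list for up to 2 genes a direction by smallest p; other genes were named after their values were seen. Depth was estimated from the spacing of low values, and a count test was not used. Figures were drawn with matplotlib 3.10.9. The model was tested on simulated data. Pathway genes were matched the same way, and markers by the model of highest mean. Other settings were a replicate block, other pseudocounts, filters and normalizations, only the libraries compared, and each library left out; the fits of 7 libraries were chosen after seeing the data.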

Additional observations from a re-analysis of the deposited data

Results flagged for a closer look

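Atp6v0b, the c″ subunit of the V0 ring, drew attention because its OGD difference ran in opposite directions in the 2 arms. All 44 genes were searched for this pattern, and its share over all models was not counted. Atp6v0b had 73.0 and 77.0 FPKM in OGD_Con, both below the 79.5 and 78.9 FPKM in Con. It had 80.2 and 90.4 FPKM in OGD_PARP14, both above the 72.8 and 79.1 FPKM in PARP14. The interaction of OGD and plasmid was 0.24 on the log2 scale with all 8 libraries and did not pass in limma (adjusted p = 0.824); without OGD_PARP14 replicate 2 it was 0.16 (adjusted p = 1).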

How the results depend on the processing

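With all 8 libraries the members' counts stayed at 0 under the pseudocounts, normalizations and 5 FPKM filter tried. With no filter 1 member, Mcoln1, passed in each OGD comparison. With only the libraries compared, 5 passed in OGD_Con against Con (3 higher, 2 lower). Leaving out each library in turn gave 0 to 7 calls in OGD_Con against Con, 0 to 28 in OGD_PARP14 against PARP14, 0 to 27 in OGD_PARP14 against OGD_Con and 0 to 21 in the interaction; the 3 highest of these counts came with OGD_PARP14 replicate 2 as the only library of its group. With each library left out in turn, the members' median log2 fold change ranged from 0.078 to 0.49 in OGD_PARP14 against PARP14. It ranged from 0.0195 to 0.40 in OGD_PARP14 against OGD_Con and from -0.0095 to 0.39 in the interaction. Without OGD_PARP14 replicate 2, leaving out a further library could remove calls in OGD_Con against Con and in OGD_PARP14 against PARP14. With only the libraries compared, the calls in the second were lost. The deviations of same-numbered libraries correlated at 0.014 to 0.124 between groups, which does not establish pairing; with a replicate block 0 members passed with 8 libraries, and with 7 libraries 8 and 4 passed in these comparisons. Depth limits genes near 1 FPKM such as Ctsk, and 2 libraries a group limit all calls.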
